A study of Rattus norvegicus with 18 samples.

Results

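Cells grown for 5 days on an immobilized fragment of beta-amyloid were compared with cells grown on it for 12 hours, the last and the earliest of the 4 exposure times in the series. The cells were rat cortical type-I astrocytes, the flat astrocytes that spread as a layer in culture, and the fragment held residues 25 to 35 of the peptide. The comparison took 6 of the 18 arrays, 3 at 5 days and 3 at 12 hours, chosen by their labelled exposure time. Unexposed cells on laminin and nitrocellulose gave 6 more arrays, and 2 sets of these were set against each other beside the exposed comparison: controls 4 to 6 (3 arrays) and controls 1 and 2 (2 arrays). Per the labels, controls 4 to 6 came from cortical type-I astrocytes like the exposed cells, while controls 1 and 2 carry cerebral cortex as their source and astrocytes in their name. Control 3 and the 6 arrays at 1 day and 3 days were in neither comparison. Age, sex and strain of the rats and the coating under the peptide are not given in the labels, nor is the control cells' time in culture. Exposure time and time in culture therefore cannot be told apart from the exposed arrays alone. Nothing in the labels says that replicate arrays came from separate cultures. The p-values therefore cover the spread between arrays, which may be technical.

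Astrocytes take up glutamate from around synapses, make glutamine and cholesterol-carrying lipoproteins, buffer potassium and secrete matrix proteoglycans and growth factors. Residues 25 to 35 form a short stretch of the beta-amyloid peptide that aggregates and is used in culture in place of the whole peptide. In culture, astrocytes also change with time after plating, as they spread, leave the cell cycle and take on or lose marker genes.

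Signal is the deposited linear intensity of a probe set, 1 value per array. Of 1322 probe sets, 59 array controls were left out and all the other 1263 were tested, of which 1137 carried 1 gene symbol and stood for 720 genes. Values under a signal of 11.3, the 10th percentile, were raised to it before log2 was taken, and 6.33% to 12.5% of values per array lay at or under that floor. Median signals ran from 101 to 131 and the number of arrays limits the precision. On log2 signals over 1263 probe sets, arrays at 5 days correlated with controls 4 to 6 at r = 0.950 to 0.972 and with arrays at 12 hours at 0.868 to 0.877. Arrays at 12 hours correlated with controls 1 and 2 at 0.937 to 0.976 and with controls 4 to 6 at 0.863 to 0.881. Controls 4 to 6 and controls 1 and 2 correlated with each other at only 0.844 to 0.872. These correlations are across probe sets, which are not independent replicates. Array 3 at 1 day and array 3 at 3 days, which entered only the alternative fits on all 18 arrays, stood apart from the other arrays of their times and are described at the end. In bulk RNA, fewer cells of a type and less RNA per cell cannot be told apart.

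Among the genes higher at 5 days than at 12 hours by over 4-fold were the calcium channel subunit Cacna2d1, the sodium channel Scn7a, the growth factor carrier Igfbp3, the proteoglycans Ncan and Bcan, the glutamate transporter Slc1a3, the metallothioneins Mt2A and Mt3, the AMPA receptor subunits Gria2 and Gria3 and the protein kinase C gene Prkcb. Lower at 5 days by over 4-fold were the forkhead factors Foxd1, Foxd3 and Foxd4, the peptide precursors Sst and Gal, the growth factor Igf2, the chemokines Ccl5 and Cx3cl1 and the prostaglandin enzyme Ptgs2. Each of these genes also differed in the same direction, by at least 2-fold, between controls 4 to 6 and controls 1 and 2, which had met no peptide, though for Ccl5 that control difference did not pass. By limma at a Benjamini-Hochberg adjusted p of 0.05, 351 of 1263 probe sets differed between 5 days and 12 hours (27.8%), with 178 higher (14.1%) and 173 lower (13.7%). An unadjusted p under 0.05 was reached by 463. A difference is called large here where it passes that threshold and reaches 4-fold, a log2 difference of 2, and 115 probe sets were large (9.11%), 80 higher and 35 lower. All 115 had separate ranges at 5 days and at 12 hours, against 46.6% of all probe sets tested. Among them, 103 carried 1 symbol and stood for 78 genes, and the others are counted but not named. Just inside the 4-fold limit lay Cacna1c at -2.004, Il18 at -2.005 on its second probe set and Ntrk2 at 2.018, and just outside it Nefl at 1.9996, Cd44 at -1.97 and Adra1b at -1.95.

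Between the control sets, 279 of 1263 probe sets passed (22.1%), 145 higher and 134 lower in controls 4 to 6, with 440 at an unadjusted p under 0.05. Of the 351 probe sets past the threshold at 5 days, 220 also passed between the controls, 62.7% of the exposed calls and 78.9% of the control calls. The control difference had the same sign in 335 of the 351 and in 113 of the 115 large ones. It was at least 2-fold in the same direction for 104 of the 115, 74 higher and 30 lower, and under 2-fold for the other 11, 6 higher and 5 lower. None of the 115 had a control difference of 2-fold or more in the opposite direction. For the 80 large higher probe sets the median log2 difference was 2.95 between 5 days and 12 hours and 2.69 between the control sets, and for the 35 large lower ones it was -2.57 and -2.39. The ratio of the control difference to the exposed difference had a median of 0.929, with quartiles of 0.746 and 1.04. The 115 were chosen by the size of the exposed difference, which tends to make that side the larger. These medians and this ratio therefore do not show which difference was larger. Across the 1263 probe sets the exposed and control differences, which share no array, correlated at r = 0.864, given as a description. With control 2 alone as the lower set, 94 of the 115 had a like control difference, and with control 1 alone 107.

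The test of the exposed difference against the control difference called 0 of 1263 probe sets by limma (0%), with 91 at an unadjusted p under 0.05 and a smallest adjusted p of 0.200. The median standard error of that double difference was 0.41 on the log2 scale, so a probe set without a call may still differ by an amount that 11 arrays do not resolve. The count was 55 without control 1, 3 without control 2 and 6 without control 6. Where 1 control was left on its own, its spread was taken from the other groups. Among the genes described below, the double difference passed without control 1 on at least 1 probe set of Ccl5, Mt2A, Igfbp6, Kif2c, Ncam1, Nefh, Nalcn, S100b, Glul, Apoe, Agtr1a, Scn7a, Igf2, Sst, Cacna2d1, Gsta1, Msmo1, Pld2, Kcnd3, Slc1a3, Igfbp3, Thra, Cacna1c, Egr1 and Snap25. The fit took all arrays as independent, while single arrays at 5 days and among controls 4 to 6 deviated from their group means together, with values given among the closing observations, and the effect of this on the count of 0 was not tested. When all 18 arrays were fitted with the 6 controls as a single group, 98 probe sets passed between 5 days and 12 hours in place of 351.

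**Figure D1:**
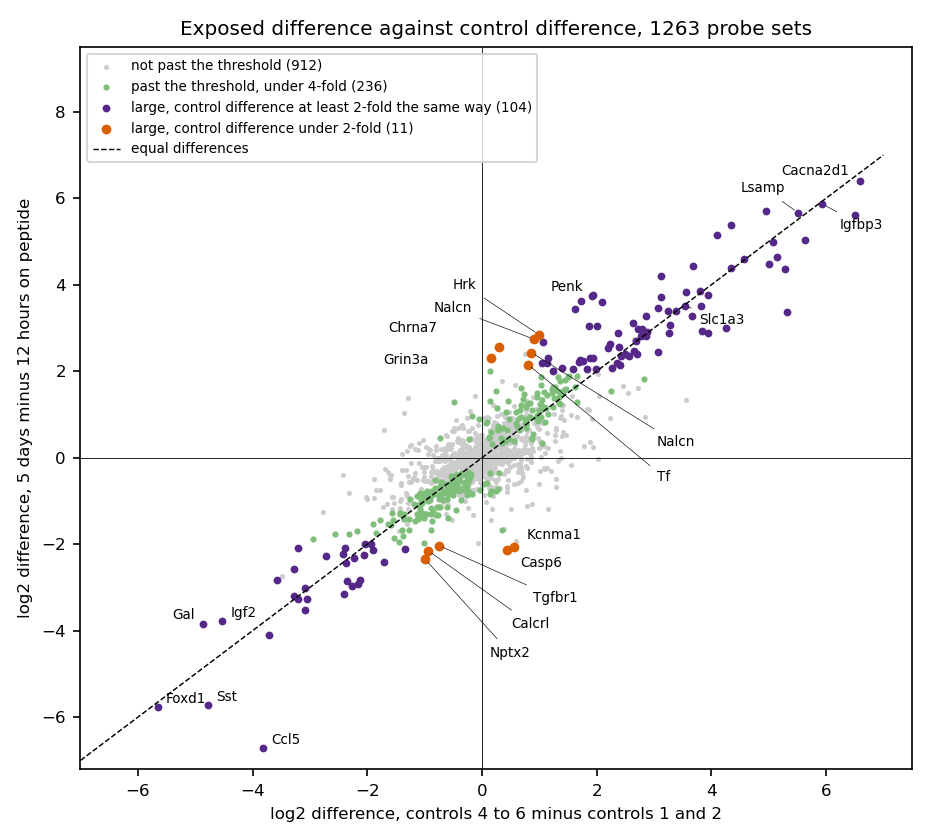
Each point is a probe set of the 1263 tested, with its log2 difference between 5 days and 12 hours on peptide on the vertical axis and that between controls 4 to 6 and controls 1 and 2 on the horizontal axis. The 104 purple points, large differences with a control difference of at least 2-fold the same way, lie along the dashed line of equal differences, and the 11 orange points, with control differences under 2-fold, lie near the vertical axis.

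Astrocyte genes were checked first, because the labels name the cell type. Each of the 20 probe sets of 9 astrocyte marker genes had a signal above the floor on at least 1 array of each group, with summed signals of 61513 to 68642 at 5 days, 58137 to 59659 at 12 hours, 49224 to 58105 in controls 4 to 6 and 40830.1 to 54018 in controls 1 and 2. Between 5 days and 12 hours 4 of 20 probe sets rose and 2 fell, against 14.1% and 13.7% over all probe sets tested. Slc1a3, the glial glutamate transporter GLAST, had signals of 2163, 2164 and 1789 at 5 days, against 186, 169 and 177 at 12 hours. In the controls its signals were 1688, 1509.5 and 1501 in controls 4 to 6, against 146 and 124 in controls 1 and 2. The 5 day arrays and controls 4 to 6 were high, the 12 hour arrays and controls 1 and 2 were low, and neither pair of groups overlapped. On this probe set Slc1a3 rose by 3.52 ± 0.11 (SE) on the log2 scale (limma adjusted p = 1.36e-07), with a control difference of 3.54 and a double difference of -0.02 (95% interval -0.41 to 0.37). It also rose on 2 of its other probe sets, by 3.28 and 2.88, while the fourth, dim at 21.9 to 22.5 at 5 days and 25.0 to 43.1 at 12 hours, had -0.59 and did not pass.

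Gja1, the gene of connexin 43 in astrocyte gap junctions, was lower, with signals of 1799, 1313 and 1059 at 5 days, against 5812, 5977 and 6133 at 12 hours, and 1893, 1504 and 1489 in controls 4 to 6, against 4269.5 and 8604 in controls 1 and 2. It fell by 2.14 on the log2 scale (limma adjusted p = 0.000648), with a control difference of -1.9. Glul, which makes glutamine from glutamate, fell by 0.84 on 1 of 4 probe sets (limma adjusted p = 0.0291), where the control difference was 0.14. The other 3 Glul probe sets, with signals of 2425 or more on every array at 5 days and 12 hours, had -0.58, -0.47 and -0.43 and did not pass. Glud1, which breaks glutamate down in mitochondria, fell by 0.90 and 0.59 on 2 probe sets, beside -0.95 and -0.55 between the controls. Apoe, the lipoprotein that carries cholesterol between brain cells, had 1.21 and 1.11 with limma adjusted p-values of 0.0502 and 0.128. S100b, a calcium-binding protein, had 1.33 and 0.13, the transporter Slc1a2 had 0.76, 0.40 and -0.75, and the intermediate filament gene Vim had -0.10, none past the threshold. The first S100b probe set had no overlap at 5 days and 12 hours, but control 1 had 401 and control 2 only 19.7, and without control 1 its double difference was -4.4 (limma adjusted p = 0.000204). Gfap, App and Fn1 were not measured under a single symbol here, so the marker counts and summed signals leave them out. Whether any of the 118 probe sets without a symbol or the 8 with several stand for these genes is not settled here. Some of the unnamed probe sets had large differences.

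Markers of other cell types were measured beside these. Of 27 neuron marker probe sets, 8 rose and 1 fell, against 14.1% and 13.7% over all probe sets tested. The 8 stood for 5 genes, and 4 of them were Map2 probe sets. Summed signals of the list were 6643 to 7102 at 5 days, 4499.9 to 4792 at 12 hours, 6146 to 8751 in controls 4 to 6 and 4633 to 4989 in controls 1 and 2. Synaptic Snap25 and Syn2 had a probe set at the floor on all 3 arrays at 5 days. Without control 1, a Snap25 probe set had an exposed difference of 0, so its double difference of 0.54 came from the controls alone. Map2, a microtubule protein of dendrites, had signals of 419.5, 545 and 533 at 5 days, against 57.2, 43.3 and 42.6 at 12 hours, and 632, 583 and 258 in controls 4 to 6, against 74 and 31.1 in controls 1 and 2. It rose by 3.39, 3.06, 3.05 and 2.46 on 4 probe sets, with control differences of 3.25, 3.27, 2.01 and 2.64. None of 13 oligodendrocyte marker probe sets passed (summed 2342 to 2513 at 5 days and 2376 to 2510.4 at 12 hours), with Mog and Pdgfra probe sets at the floor in all 4 groups. A single microglial probe set was present, at 22.3 to 60.5 at 5 days and 32.1 to 40.1 at 12 hours. The fibroblast, meningeal and vascular list had 7 probe sets of 2 genes. Summed signals were 1056 to 1251 at 5 days, 4290.3 to 4445 at 12 hours, 1247 to 1395 in controls 4 to 6 and 4717 to 9776 in controls 1 and 2. Both calls in it were Igf2, lower at 5 days. Most of the sum at 12 hours came from 1 Igf2 probe set, with mean signals of 3400 at 12 hours and 248 at 5 days. The sums therefore largely restate that probe set. The part of a change in cell makeup in the differences described here was not tested.

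Among matrix and adhesion genes, 14 of 29 probe sets rose and 3 fell at 5 days, with a median log2 difference of 1.27 for the list, against 0 over all probe sets tested, and a control median of 1.35. Between the controls 13 higher and 2 lower passed in this list. Ncan, which encodes the brain proteoglycan neurocan, had signals of 2575, 4367 and 4639 at 5 days, against 159, 169 and 171 at 12 hours. Control values were 2105, 3576 and 3292 in controls 4 to 6, against 145 and 57.3 in controls 1 and 2. It rose by 4.49 and, on its other large probe set, by 2.93, beside control differences of 5.0 and 3.83. Bcan, which encodes the related proteoglycan brevican, had signals of 2100.2, 1549 and 1745 at 5 days, against 158, 157 and 100.4 at 12 hours, and 2235, 1188 and 1397 in controls 4 to 6, against 182 and 173 in controls 1 and 2. Neither proteoglycan overlapped between 5 days and 12 hours. Bcan rose by 3.72 ± 0.27 (SE, limma adjusted p = 2.07e-05), beside 3.13 between the controls.

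Lsamp, a surface protein of limbic neurons that guides axons, had signals of 607, 599.7 and 529.6 at 5 days, against 10.7, 11.4 and 11.3 at 12 hours, and 533, 770.4 and 816 in controls 4 to 6, against 12.1 and 19.2 in controls 1 and 2. The 12 hour arrays and controls 1 and 2 lay near the floor and the other 6 arrays far above it. Lsamp rose by 5.67 ± 0.21 (SE, limma adjusted p = 2.68e-07), against 5.51 between the controls. Nrxn2, Nlgn1 and Ncam1, which encode the synaptic adhesion proteins neurexin 2 and neuroligin 1 and the neural cell adhesion molecule, rose by 2.55, 2.54 and 2.31 on their highest probe sets, with control differences of 2.39, 2.21 and 1.89. For Ncam1 the control difference was 0.99 without control 1, and the double difference of 1.31 then passed (limma adjusted p = 0.0313). The axon guidance receptor Nrp1, in a list of 3 probe sets with 1 call, fell by 1.45, beside -1.55. The 3 matrix and adhesion probe sets that fell were Cd44, the hyaluronan receptor, by 1.97, and both probe sets of Icam1, a leukocyte adhesion molecule, by 1.30 and 1.32. Outside the list, the cadherin Cdh6, picked out after its values were seen, fell by 2.26 and the neurexin ligand Nxph1 rose by 3.87, beside -2.06 and 3.8 between the controls.

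Mt1, Mt2A and Mt3, metallothioneins that bind zinc and copper, were higher at 5 days. In the list of metallothioneins and antioxidant enzymes 7 of 14 probe sets rose and 1 fell, with a median of 0.35 and a control median of 0.55, and 7 higher and 2 lower passed between the controls. The 2 large members, Mt2A and Mt3, lie near each other on chromosome 19. The 300 bases around each start, 250 before and 50 after, are shown because metal-response elements sit in metallothionein promoters. The pattern searched, TGCNCNC, is a loose form of their core, so the matches need not all be such elements. The sequences are from RefSeq, build GRCr8, Mt2A at chr19:10838659-10838958 and Mt3 at chr19:10856031-10856330, both on the minus strand and written 5′ to 3′ along the gene, with matches to TGCNCNC on either strand in capitals.
Mt2A: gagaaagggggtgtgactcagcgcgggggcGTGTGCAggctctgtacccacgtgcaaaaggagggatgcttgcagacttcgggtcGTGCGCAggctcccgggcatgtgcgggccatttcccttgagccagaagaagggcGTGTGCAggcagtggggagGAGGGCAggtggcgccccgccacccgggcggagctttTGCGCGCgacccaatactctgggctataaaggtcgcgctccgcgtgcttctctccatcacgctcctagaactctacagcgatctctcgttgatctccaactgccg
Mt3: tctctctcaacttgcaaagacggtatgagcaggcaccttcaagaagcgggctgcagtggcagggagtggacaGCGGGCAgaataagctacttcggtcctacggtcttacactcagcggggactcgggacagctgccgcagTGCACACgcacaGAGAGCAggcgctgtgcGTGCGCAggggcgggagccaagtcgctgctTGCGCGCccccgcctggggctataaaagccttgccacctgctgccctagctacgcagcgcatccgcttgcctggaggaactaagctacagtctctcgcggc
Each window held 5 matches, a number reached by 0.669% of the 33469 promoter windows searched, and 49.6% held at least 1. A match is a run of letters and does not show that a factor binds there.

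Mt3, the brain form, had signals of 2915, 4629 and 3902 at 5 days, against 459, 378 and 474 at 12 hours, and 2001, 1565 and 1516 in controls 4 to 6, against 474 and 156 in controls 1 and 2. It rose by 3.11 ± 0.37 (SE, limma adjusted p = 0.000452), with a control difference of 2.63. Mt2A, a form made in most tissues, had signals of 17805, 14537 and 15526 at 5 days, against 2312, 1963 and 2161 at 12 hours, and 16156, 12609 and 13664 in controls 4 to 6, against 1798 and 461 in controls 1 and 2. Neither gene overlapped between 5 days and 12 hours, and in both control 2 lay well below control 1. Mt2A rose by 2.89 (limma adjusted p = 0.00118), beside 3.95 between the controls, and its double difference was -1.06 (95% interval -2.48 to 0.37). Without control 1 that double difference was -2.04 with a limma adjusted p of 0.00398. Mt1 rose by 1.54 and the extracellular superoxide dismutase Sod3 by 1.64 and 1.57, with control differences of 1.33, 1.62 and 1.43. Sod2, the mitochondrial superoxide dismutase, fell by 1.77, beside -2.31 between the controls.

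Hspb1, a small heat shock protein that protects actin filaments, rose on 3 probe sets, by 2.82, 2.41 and 2.32, with control differences of 2.78, 2.71 and 1.94. On the first its signals were 9767, 9873 and 11295 at 5 days, against 1458, 1388 and 1529 at 12 hours, and 8216, 11991 and 11235 in controls 4 to 6, against 1274 and 1793 in controls 1 and 2. The inducible Hspa1a rose by 0.87, and the mitochondrial chaperonins Hspd1 and Hspe1 fell by 0.79 and 0.82. In all, 4 of 13 heat shock and chaperone probe sets rose and 2 fell, against 14.1% and 13.7% over all probe sets tested. The same numbers passed between the controls.

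Members of the insulin-like growth factor axis differed in opposite directions. Igf2 and the binding protein Igfbp6 were lower at 5 days and the binding proteins Igfbp3, Igfbp5 and Igfbp2 were higher. Of 22 probe sets 5 rose and 3 fell, against 14.1% and 13.7% over all probe sets tested, and between the controls 4 and 3 passed. Igf2, a fetal growth factor made by meningeal and vascular cells in the brain, had signals of 268, 229 and 246 at 5 days, against 3283, 3430.2 and 3488 at 12 hours. Control values were 285, 220.2 and 211 in controls 4 to 6, against 3729.6 and 8043 in controls 1 and 2. It fell by 3.78 ± 0.26 (SE, limma adjusted p = 1.64e-05) on this probe set and by 3.26 on a second, with control differences of -4.53 and -3.05. Its 4 other probe sets had -0.37 to 0.31 and did not pass. Igfbp3, which binds and carries insulin-like growth factors, had signals of 2785, 2958 and 3183 at 5 days, against 59.1, 39.9 and 55.7 at 12 hours, and 2739, 2891 and 2302 in controls 4 to 6, against 16.3 and 113 in controls 1 and 2. The lowest of the 5 day arrays and controls 4 to 6 was 2302, and the highest of the other 5 arrays was 113. Igfbp3 rose by 5.87 ± 0.58 (SE, limma adjusted p = 0.000154), beside 5.94 between the controls, and by 5.71 on its other probe set. Igfbp5 rose by 2.91 and 2.2, and Igfbp2 by 1.11, a call lost in 8 of the 11 fits that each left out 1 array. Igfbp6, which prefers Igf2, had signals of 381, 532 and 424 at 5 days, against 2877, 3179 and 3308 at 12 hours, and 490.3, 442 and 371 in controls 4 to 6, against 3439.9 and 1019 in controls 1 and 2. It fell by 2.82, with a control difference of -2.12. Without control 1 the control difference was -1.24 and the double difference -1.58 (limma adjusted p = 0.0247). The growth hormone receptor Ghr fell by 2.92, beside -2.16 between the controls.

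Among neurotrophic factors, Cntf, a cytokine stored in astrocytes that keeps neurons alive, had signals of 1546, 1637 and 1668 at 5 days, against 105, 131 and 123 at 12 hours, and 1982, 1757 and 1892 in controls 4 to 6, against 118 and 126 in controls 1 and 2. It rose by 3.76 ± 0.10 (SE, limma adjusted p = 5.21e-08), beside 3.94 between the controls, and its double difference was -0.18 (95% interval -0.53 to 0.17). Of 22 probe sets of neurotrophins and their receptors 7 rose and 2 fell, against 14.1% and 13.7% over all probe sets tested. Between the controls 2 higher and 2 lower passed. For 7 of the calls at 5 days the control difference was at least 2-fold in the same direction, and for 2 it was under 2-fold. Bdnf rose on 3 of its 7 probe sets, by 1.86, 1.46 and 0.74, beside 1.495, 0.74 and 0.28 between the controls. Ntrk2, the receptor of Bdnf, rose by 2.02, beside 1.23. None of these control differences of Bdnf and Ntrk2 passed. Gfra2, the receptor for neurturin, and Ntf4 fell by 2.24 and 1.77, with control differences of -2.42 and -2.57. The list of mitogens and their receptors had 1 higher and 1 lower of 28 probe sets, Tgfa at 1.17 and the hepatocyte growth factor receptor Met at -1.4.

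The neuropeptide precursors Sst and Gal fell, and Npy and 1 of 2 probe sets of Penk rose. Sst, the precursor of somatostatin, had signals of 22.2, 21 and 27.7 at 5 days, against 1189.7, 1332 and 1194 at 12 hours, and 43.9, 30.1 and 32.6 in controls 4 to 6, against 1425 and 644 in controls 1 and 2. It fell by 5.72 ± 0.28 (SE, limma adjusted p = 1.94e-06), a 52.7-fold difference of the mean log2 values, and by 3.53 on its other probe set, with control differences of -4.77 and -3.08. The somatostatin gene is known for a cyclic AMP response element, the palindrome TGACGTCA, and its promoter window is shown for that reason (RefSeq, build GRCr8, chr11:90461296-90461595, plus strand, the match in capitals).
Sst: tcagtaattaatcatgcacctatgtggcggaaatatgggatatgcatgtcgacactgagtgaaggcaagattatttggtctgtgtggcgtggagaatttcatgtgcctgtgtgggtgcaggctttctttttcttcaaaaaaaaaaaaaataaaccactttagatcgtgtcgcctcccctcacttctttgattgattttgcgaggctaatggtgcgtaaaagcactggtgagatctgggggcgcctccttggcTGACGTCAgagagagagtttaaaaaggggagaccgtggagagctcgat
The match lay within the 50 bases after the annotated start, and 1.83% of the 33469 windows held this motif.

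Gal, the precursor of galanin, had signals of 14.9, 17.2 and 20.6 at 5 days, against 234, 262 and 250 at 12 hours, and 11.8, 15.6 and 11.6 in controls 4 to 6, against 359 and 393 in controls 1 and 2. It fell by 3.83 ± 0.15 (SE, limma adjusted p = 6.04e-07), beside -4.87 between the controls. Its double difference was 1.03 with an unadjusted p of 0.00203 and a limma adjusted p of 0.336. With the higher floor at the 25th percentile it was 0.60 and passed (limma adjusted p = 0.0126). All signals at 5 days and in controls 4 to 6 lay under that floor. The value of 0.60 therefore compares only the 12 hour arrays with controls 1 and 2. On 1 of 2 probe sets Penk, the precursor of the enkephalin opioid peptides, had signals of 1595, 4132 and 3780.3 at 5 days, against 206, 237 and 209 at 12 hours, and 1128, 1469.5 and 1595 in controls 4 to 6, against 232 and 578 in controls 1 and 2. Its exposed difference of 3.75 (limma adjusted p = 0.000326) stood beside a control difference of 1.92 (0.0219), and the double difference was 1.83 (95% interval 0.37 to 3.30, limma adjusted p = 0.64). Npy, the neuropeptide Y precursor, rose by 2.44, beside 3.06 between the controls. The secreted neuronal peptide precursor Vgf and the neurokinin B precursor Tac3 rose by 0.82 and 0.76, and Calcb, the precursor of a calcitonin gene-related peptide, fell by 1.42, with control differences of 1.1, 0.77 and -1.12. Over the list of neuropeptide precursors 4 of 24 probe sets rose and 5 fell, against 14.1% and 13.7% over all probe sets tested, and between the controls 4 and 5 passed as well.

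The chemokines Ccl5 and Cx3cl1, the inducible enzyme Ptgs2 and the cytokine Il18 were lower at 5 days than at 12 hours, as were several cytokine receptor and Jak-Stat genes. Of 54 probe sets of chemokines, cytokines and inflammatory enzymes 7 rose and 11 fell, against 14.1% and 13.7% over all probe sets tested. The list median was 0, and between the controls 5 higher and 7 lower passed. Ptgs2, the inducible enzyme of prostaglandin synthesis, had signals of 453, 201 and 195 at 5 days, against 2487, 2251 and 2195 at 12 hours, and 172, 173 and 250.2 in controls 4 to 6, against 1407 and 762 in controls 1 and 2. It fell by 3.14 ± 0.36 (SE, limma adjusted p = 0.000341), with a control difference of -2.41. Cx3cl1, the chemokine fractalkine, had signals of 132, 97.7 and 45.3 at 5 days, against 779, 771 and 860.2 at 12 hours, and 139, 68.4 and 47.5 in controls 4 to 6, against 731 and 679.7 in controls 1 and 2. It fell by 3.26, 2.44 and 2.27 on 3 probe sets, beside -3.2, -2.38 and -2.71 between the controls. Il18, a cytokine cut to its active form by caspase 1, fell by 2.32 and 2.0, and Tgfb1 fell by 1.53, with control differences of -2.22, -1.93 and -1.63. Ptgs1, the constitutive form of the prostaglandin enzyme, rose by 2.68, where the controls gave 1.06 (limma adjusted p = 0.306). Vcam1, an adhesion molecule induced by cytokines, rose by 1.82, beside 2.82 between the controls, but did not pass in 8 of the 11 fits that each left out 1 array.

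Ccl5, a chemokine that draws in T cells and monocytes, was near the floor at 5 days and high at 12 hours. Its signals were 11.7, 13.4 and 13 at 5 days, against 1480, 1251 and 1253 at 12 hours, and 12.4, 11.4 and 17.3 in controls 4 to 6, against 1496 and 24.2 in controls 1 and 2. The 12 hour arrays and control 1 had 1251 or more, and the 5 day arrays, controls 4 to 6 and control 2 lay near the floor. Ccl5 fell by 6.71 ± 1.21 (SE, limma adjusted p = 0.00395), a 104-fold difference. The control difference was -3.82 (limma adjusted p = 0.0775) and the double difference -2.89 (95% interval -7.05 to 1.28). With control 2 alone as the lower control set, the control difference was -0.84 and the double difference -5.86 with a limma adjusted p of 0.000157. At 1 day and 3 days Ccl5 had signals of 17.2, 15 and 21 and of 13, 13 and 15, near the floor on all 6 arrays.

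Of 22 cytokine receptor and Jak-Stat probe sets, 3 rose and 11 fell, with a median of -0.55 and a control median of -0.52, and 3 higher and 8 lower passed between the controls. The kinases Jak1 and Jak2 fell by 1.3 and 1.33, with control differences of -1.12 and -0.77. Tgfbr3, which presents transforming growth factor beta to its receptor, fell by 1.88, beside -2.95. The factor Stat3 fell by 1.28 and 0.91 on 2 of 3 probe sets and the receptor of tumour necrosis factor Tnfrsf1a by 0.87, and the chemokine receptor Cxcr4 rose by 1.25 and 0.70.

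**Figure D2:**
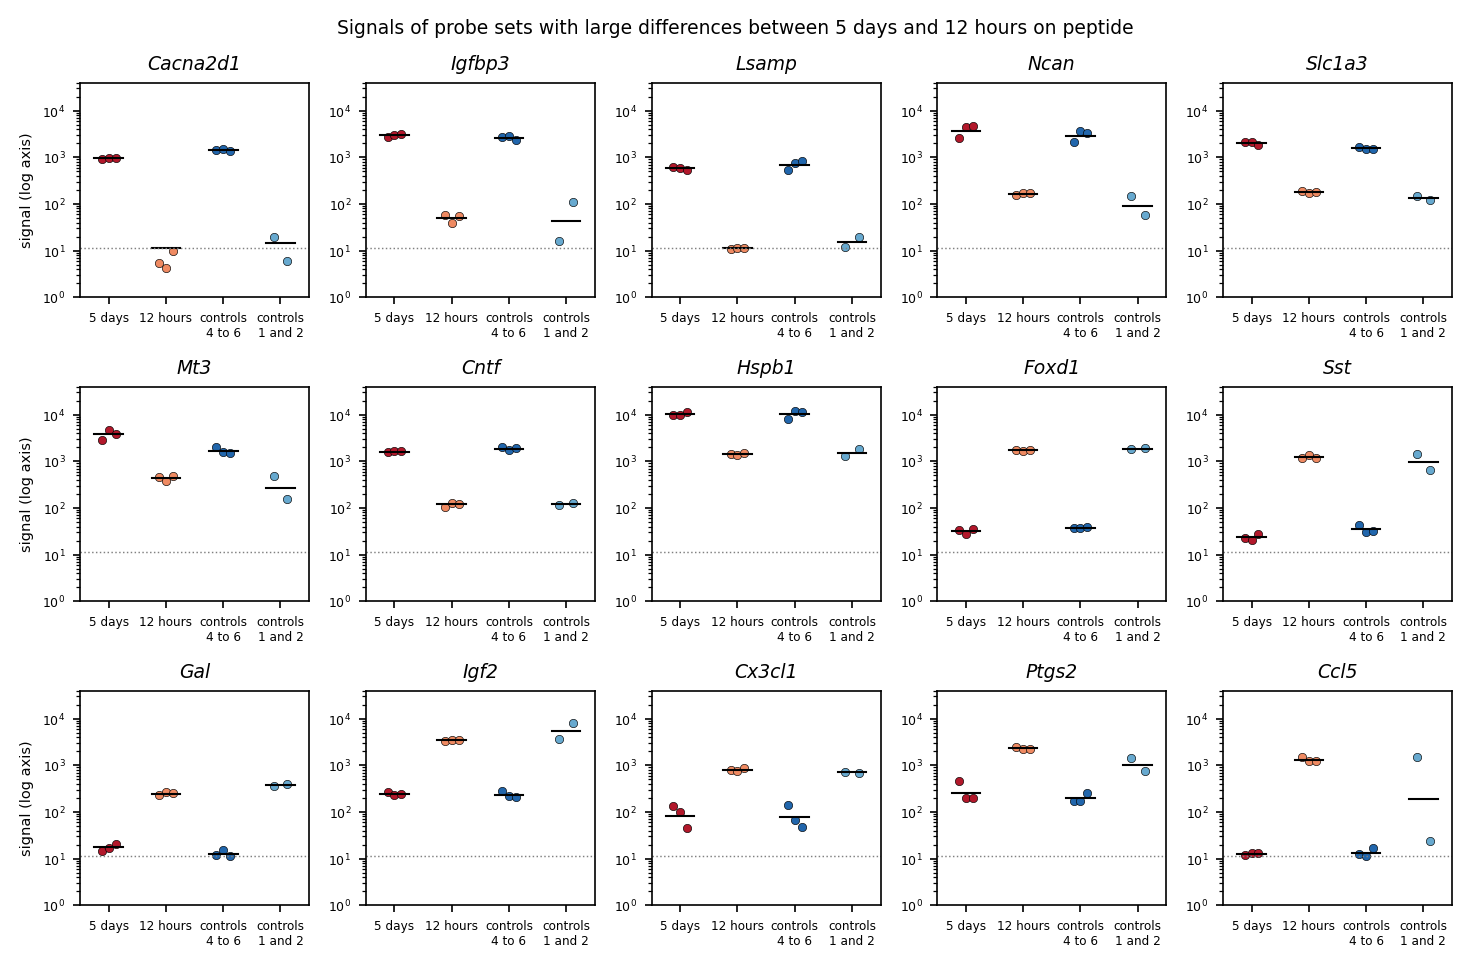
Signals on a log axis of 15 probe sets with large differences, by group: 5 days and 12 hours on peptide in red and orange, controls 4 to 6 and controls 1 and 2 in dark and light blue. Points are arrays, bars are the means of log2 values with the floor applied, and the dotted line is the floor of 11.3. In each of the 15 panels every array of 5 days and of controls 4 to 6 lies on the same side of every array of 12 hours and of controls 1 and 2, but for Ccl5 control 2, at 24.2, lies near the low groups.

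Several ion channel and transmitter receptor genes were far higher at 5 days, some against values at or near the floor at 12 hours, while most members of these families did not pass. Of 95 probe sets of sodium, calcium and other cation channels and pumps, 11 rose and 5 fell, both shares below the 14.1% and 13.7% over all probe sets tested, and between the controls 9 higher and 7 lower passed. Cacna2d1, the auxiliary alpha2delta subunit that carries calcium channels to the membrane, had signals of 905, 966 and 981 at 5 days, against 5.5, 4.3 and 9.7 at 12 hours, and 1427, 1476 and 1375 in controls 4 to 6, against 19.3 and 6 in controls 1 and 2. All 12 hour values were under the floor of 11.3, so it was at least 84.1-fold higher at 5 days (limma adjusted p = 5.21e-08), and the control difference was 6.59. Scn7a, a sodium channel that senses extracellular sodium in glia, had signals of 2527, 3077 and 2821 at 5 days, against 90.1, 90.3 and 75.9 at 12 hours, and 2395, 2106 and 2329.9 in controls 4 to 6, against 85.7 and 24.2 in controls 1 and 2. It rose by 5.04 and 3.47 on 2 probe sets, beside 5.64 and 3.07 between the controls. Atp1b2, the beta subunit of the astrocyte sodium pump, had signals of 597, 988 and 834 at 5 days, against 43, 37.4 and 119.7 at 12 hours, and 661, 335 and 602 in controls 4 to 6, against 91.6 and 195 in controls 1 and 2. Its exposed differences on 2 probe sets, 3.77 and 2.19, stood beside control differences of 1.94 and 1.06, and the double differences of 1.84 and 1.14 had limma adjusted p-values of 0.683 and 0.415. The chloride transporter gene Clcn4 and the acid-sensing channel Asic2 rose by 2.06 and 2.04, beside 1.84 and 2.0. Cacna1c, the pore of an L-type calcium channel, fell by 2.0, and its control difference was -2.04.

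Among glutamate receptor genes and their scaffolds 7 of 49 probe sets rose, near the 14.1% over all probe sets tested. In this list 2 fell, a share below the 13.7% over all, and between the controls 5 higher and 3 lower passed. Gria3, an AMPA receptor subunit, had signals of 319, 253 and 254 at 5 days, against 8.8, 3.1 and 5.6 at 12 hours, and 298, 262 and 245 in controls 4 to 6, against 10.2 and 5.1 in controls 1 and 2. It was at least 24.2-fold higher at 5 days (limma adjusted p = 4.82e-08), with 4.6 and 4.39 on its 2 probe sets, beside 4.57 and 4.35 between the controls. Gria2, the subunit that sets calcium permeability, rose by 2.99 and 2.69, with control differences of 4.25 and 2.68, and the kainate receptor subunit Grik5 rose by 2.25, beside 1.71. The synaptic scaffold gene Dlgap4 fell by 1.13, where the controls gave -0.76. Among 62 probe sets of GABA, glycine and acetylcholine receptors 4 rose and 2 fell, and among 77 of potassium channels 2 rose and 2 fell, shares below those over all probe sets. In these the GABA-B receptor gene Gabbr1 rose by 1.68 on its widest probe set, the nicotinic subunit Chrnb4 rose by 0.81 and Chrnb1 fell by 0.36, with control differences of 1.03, 0.59 and 0.14, and the potassium channel Kcnd3 fell by 0.76, beside 0.16. The modulatory potassium channel subunit Kcns1 rose by 2.98, beside 2.8. Of 85 probe sets of monoamine, peptide and purine receptors 7 rose and 6 fell, shares also below those over all probe sets. The adrenergic receptors Adra1d and Adrb1 rose by 3.51 and 3.4, with control differences of 3.83 and 3.39. Agtr1a, the angiotensin II receptor, had signals of 2.7, 3 and 3.2 at 5 days, against 85.1, 72.7 and 84.8 at 12 hours, and 2.4, 2 and 7.8 in controls 4 to 6, against 73.8 and 247 in controls 1 and 2. It was at least 7.14-fold lower at 5 days, where it lay under the floor on every array, and the same held for controls 4 to 6.

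Of 46 probe sets of the vesicle and SNARE machinery 6 rose and 1 fell, shares below those over all probe sets, and none reached 4-fold. Among them were the synaptotagmin Syt11 at 1.79, the synaptojanin Synj2 at 1.23 and the vesicle protein Sv2a at 0.90. Syn1 stood at 0.66, and the syntaxin Stx3 was lower by 1.16. Of 25 probe sets of transmitter enzymes and transporters, 2 rose and 2 fell, shares below those over all probe sets. The amino acid transporter Slc6a15 rose by 3.62 and the monoamine oxidase Maob, an astrocyte form, by 1.88, while Th, the rate-limiting enzyme of dopamine synthesis, fell by 1.39. The sister enzyme Maoa fell by 0.50, beside -0.52 between the controls. Control differences for Slc6a15, Maob and Th were 1.73, 1.03 and -1.01. Of 27 cytoskeleton and neurofilament probe sets 7 rose and 2 fell, against 14.1% and 13.7% over all probe sets tested. The microtubule proteins Mapt, or tau, and Map1a rose by 0.98 and 0.97, beside 0.96 and -0.17 between the controls. The neurofilament gene Nefl was higher by 2.0 on 1 of 2 probe sets and Nefh lower by 2.97, where the controls gave 0.15 and -2.26. Nefh had signals of 18, 25.5 and 5.4 at 5 days, against 134, 139 and 134 at 12 hours, and 6.2, 9.2 and 11.8 in controls 4 to 6, against 167 and 18.1 in controls 1 and 2, so that here too control 2 lay with the low groups. Without control 1 its control difference was -0.66 and its double difference -2.31 (limma adjusted p = 0.0396).

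Among signalling genes, the protein kinase C gene Prkcb and the regulatory subunit Pik3r1 were higher at 5 days, and the MAP kinase genes Map2k1 and Map3k1 and the phosphatase Dusp5 were lower. Of 47 probe sets of G protein, cyclic AMP, inositol lipid and protein kinase C signalling 11 rose and 8 fell. Of 52 of MAP, calmodulin and Src-family kinases and phosphatases 6 rose and 16 fell. Over all probe sets tested 14.1% rose and 13.7% fell. Between the controls 10 higher and 5 lower passed in the G protein list and 4 higher and 14 lower in the MAP kinase list. Prkcb had signals of 809, 589 and 652 at 5 days, against 17.5, 5.5 and 34.6 at 12 hours, and 625, 752 and 671 in controls 4 to 6, against 33.7 and 46.2 in controls 1 and 2. It rose by 5.16, 4.99 and 2.89 on 3 probe sets, beside 4.11, 5.08 and 2.38 between the controls. Pik3r1, the regulatory subunit of phosphatidylinositol 3-kinase, rose by 2.81 and 2.35, and the cyclic AMP phosphodiesterase Pde4a by 2.06. The G protein subunit Gnao1 rose by 1.5 and 1.41, while Prkca, another protein kinase C gene, fell by 0.94 and the receptor kinase Grk2 by 1.29, with control differences of 0.96, 0.96, -0.61 and -1.36. Pcp4, a small protein that tunes calmodulin, was at least 25.1-fold higher at 5 days, with 4.65 against 5.15 between the controls. Dusp5, a phosphatase that switches off ERK in the nucleus, had signals of 351, 615 and 445 at 5 days, against 3131, 1703 and 2729 at 12 hours, and 349.7, 379 and 424 in controls 4 to 6, against 2637 and 593 in controls 1 and 2. It fell by 2.41 (limma adjusted p = 0.00794), with a control difference of -1.71 (limma adjusted p = 0.0637). The kinases Pak1 and Fyn, which act on the cytoskeleton and at adhesions, rose by 2.19 and 1.87, beside 1.13 and 1.33. The kinases Map2k1 and Map3k1 fell by 1.29 and 1.45, beside -0.98 and -1.78.

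The transcription factor genes Foxd1, Foxd3 and Foxd4 fell and Pou3f3 rose. Foxd1, a forkhead factor, had signals of 33.1, 27.3 and 35.3 at 5 days, against 1773, 1620.3 and 1771 at 12 hours, and 36.4, 37.1 and 38.2 in controls 4 to 6, against 1808 and 1943 in controls 1 and 2. The spread within each group was small, and it fell by 5.76 ± 0.11 (SE, limma adjusted p = 1.22e-08), a 54.2-fold difference, beside -5.65 between the controls. Foxd4 fell by 4.09 and Foxd3 by 3.21, with control differences of -3.72 and -3.27. The IDs of these 3 probe sets mark them as shared by a gene family, so signals may come from a related gene and the 3 are not independent. Pou3f3, a POU factor of the developing brain, had signals of 1094, 1502 and 1604 at 5 days, against 102, 93.7 and 97.1 at 12 hours, and 1434, 1457 and 985 in controls 4 to 6, against 108 and 109 in controls 1 and 2. It rose by 3.82 ± 0.19 (SE, limma adjusted p = 1.94e-06), beside 3.55 between the controls. Among immediate early factors 6 of 17 probe sets rose and 3 fell, against 14.1% and 13.7% over all probe sets tested. Fos rose by 1.49 on its widest probe set, the orphan receptor Nr4a1 rose by 1.57 and Egr1 fell by 1.13, with control differences of 1.22, 1.27 and -0.62. The Notch target Hes1 fell by 0.58, beside 0.10 between the controls. Of 3 probe sets of Nr4a3, 2 passed in opposite directions, at -1.74 and 1.55. The retinoic acid receptor Rarb rose by 3.6, beside 2.09 between the controls (limma adjusted p = 0.0775).

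Other large differences fell in none of the lists. Fez1, a kinesin adaptor for axonal transport, was at least 41.8-fold higher at 5 days and Ctnnd2, a catenin of dendritic spines, at least 21.5-fold, with control differences of 4.35 and 3.68. Fez1 varied among controls 4 to 6, with 555, 127 and 175. Ctsk, a collagen-degrading cathepsin, fell by 2.57, beside -3.28. The 7 others named here were picked out after their values were seen. Ltbp2, a matrix protein that binds fibrillin, rose by 3.37, the imprinted Nnat by 3.27, the kinesin Kif2c by 3.44, Ctxn1 by 2.32 and the death receptor inhibitor Faim2 by 2.07. The protease inhibitor Serpine2 and the coactivator Cited2 each fell by 2.08. Control differences were 5.33, 3.66, 1.62, 1.16, 2.27, -2.39 and -3.21 in that order. For Kif2c the control difference was -0.44 without control 1, opposite in sign, and the double difference of 3.88 then passed (limma adjusted p = 0.0259).

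**Figure D3:**
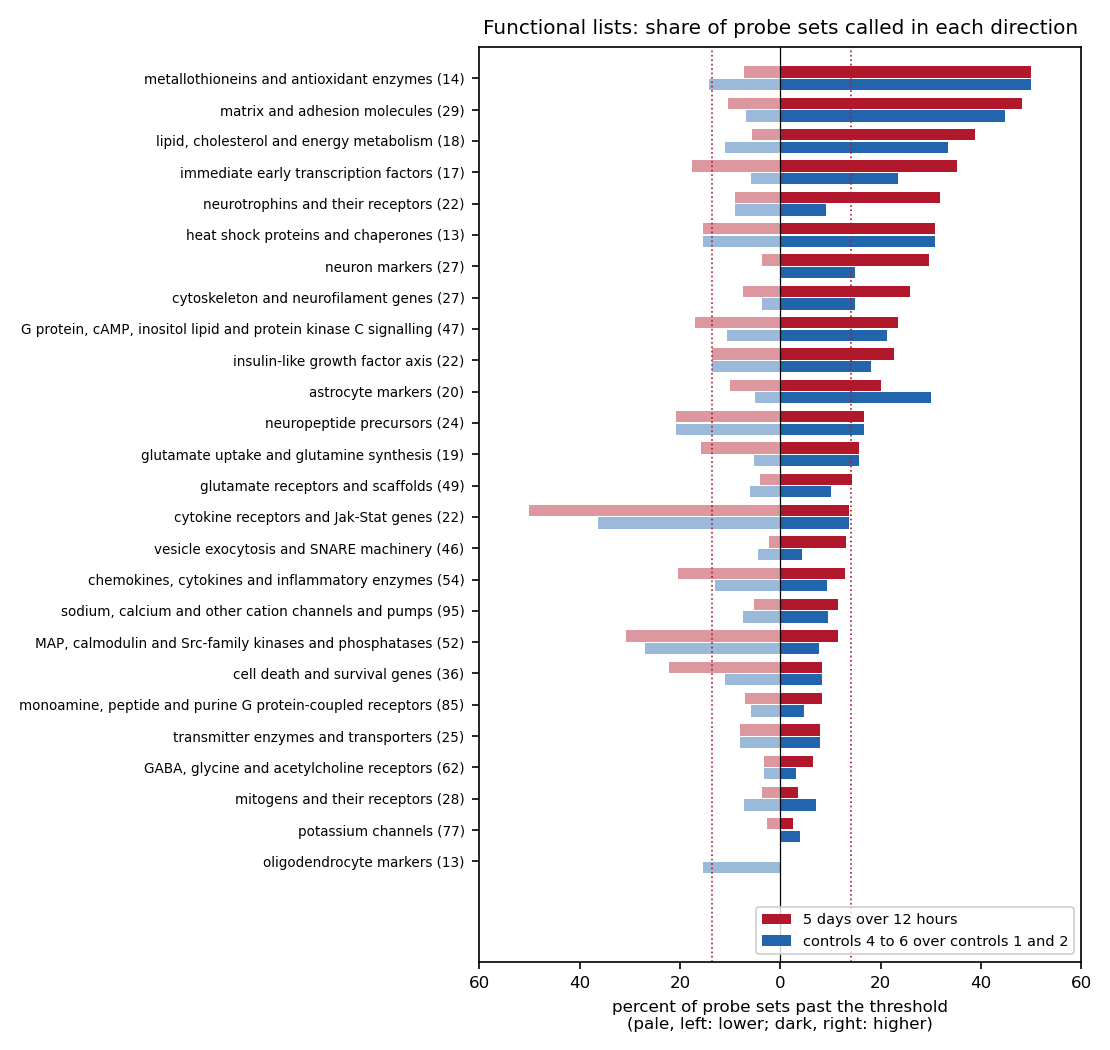
Share of the probe sets of each functional list with at least 10 probe sets (number in brackets) that passed the limma threshold, higher to the right in dark colour and lower to the left in pale colour, for 5 days over 12 hours (red) and controls 4 to 6 over controls 1 and 2 (blue). Dotted lines mark the shares over all 1263 probe sets, 14.1% higher and 13.7% lower. Metallothioneins and matrix genes reach furthest right and cytokine receptor and Jak-Stat genes furthest left in both comparisons.

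The lists were described by counts alone, without a test of the list. Among lists of at least 10 probe sets, of the 3 whose higher share lay furthest above 14.1%, metallothioneins and antioxidant enzymes had 7 of 14, matrix and adhesion molecules 14 of 29, and lipid, cholesterol and energy metabolism 7 of 18. Furthest above 13.7% lower stood cytokine receptors and Jak-Stat genes with 11 of 22, MAP, calmodulin and Src-family kinases and phosphatases with 16 of 52 and cell death and survival genes with 8 of 36. In this last list the control sets gave 3 higher and 4 lower, and Bcl2, which blocks apoptosis, fell by 1.38 on 1 of 3 probe sets while the death receptor Fas rose by 1.65. In the metabolic list, the brain creatine kinase Ckb, which buffers ATP, rose by 2.97 and 2.41, beside 2.72 and 2.49 between the controls. There the thyroid hormone receptor Thra rose by 1.46, the glucose transporter Slc2a1 rose by 1.29 and the neuronal form Slc2a3 fell by 0.62, with control differences of 1.13, 1.67 and -0.63. Of 8 probe sets of amyloid precursor and secretase genes, 1 (Mapt) rose and 2 fell, with the secretase component Psen2 lower by 0.79 and the sheddase Adam17 by 0.86.

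The 11 large differences that had a control difference under 2-fold stood for 10 genes, and they were picked out after their values were seen. Hrk at 0.991 and Nptx2 at -0.989 lay just under that limit. Against control 1 alone, Hrk, Nptx2, Calcrl and the 2 Nalcn probe sets had 1.41, -1.65, -1.15, 1.52 and 1.43, past it. Against control 2 alone they had 0.58, -0.33, -0.73, 0.30 and 0.30. The other genes of the 11 stayed under 2-fold against either control. Hrk, a BH3 protein that promotes apoptosis, had signals of 141, 73.8 and 153 at 5 days, against 20.7, 16 and 12.9 at 12 hours, and 42, 69.7 and 55.5 in controls 4 to 6, against 20.6 and 36.6 in controls 1 and 2. Its exposed difference was 2.85 ± 0.36 (SE, limma adjusted p = 0.000543) and its control difference 0.99. Casp6, an executioner caspase, had signals of 30.8, 23.1 and 29 at 5 days, against 99.6, 164 and 107 at 12 hours, and 103, 95.9 and 41.9 in controls 4 to 6, against 60.6 and 49.5 in controls 1 and 2. It fell by 2.13 (limma adjusted p = 0.00253), where the controls gave 0.44, and its double difference was -2.58 ± 0.53 (SE, unadjusted p = 0.00113, limma adjusted p = 0.336). A second Casp6 probe set fell by 0.69 with a control difference of -0.82.

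Chrna7, the alpha7 nicotinic acetylcholine receptor subunit, had signals of 103, 111 and 164 at 5 days, against 18.8, 21.4 and 22.3 at 12 hours, and 82.3, 56.2 and 38.5 in controls 4 to 6, against 73.6 and 28.2 in controls 1 and 2. The control sets overlapped, and the exposed difference of 2.57 (limma adjusted p = 0.00172) stood beside 0.30. Grin3a, an NMDA receptor subunit, had 229, 69.9 and 112 at 5 days, against 13, 21.1 and 53.8 at 12 hours, and 96.4, 59.5 and 30.4 in controls 4 to 6, against 66.7 and 37.8 in controls 1 and 2, with differences of 2.31 and 0.15. Nalcn, the sodium leak channel, had 120, 61.4 and 58.7 at 5 days, against 7.6, 10.1 and 6.8 at 12 hours, and 136, 104 and 121 in controls 4 to 6, against 41.8 and 96.8 in controls 1 and 2. All 3 of its 12 hour values were under the floor, so it was at least 6.69-fold higher at 5 days, and its second probe set rose by 2.43, with control differences of 0.91 and 0.86. Tf, the gene of transferrin, an iron carrier, had 572, 394 and 370.1 at 5 days, against 94.4, 96.2 and 104 at 12 hours, and 182, 239 and 279 in controls 4 to 6, against 132 and 131 in controls 1 and 2. Tf rose by 2.15 on this probe set and 2.24 on its other, where the control differences were 0.81 and 1.77.

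The potassium channel gene Kcnma1 had 8.8, 4.3 and 4.3 at 5 days, against 43.4, 48.8 and 50.2 at 12 hours, and 12.8, 4.8 and 43.9 in controls 4 to 6, against 13.8 and 5.8 in controls 1 and 2, so that it was at least 4.19-fold lower at 5 days on this probe set, while 1 of its 3 other probe sets rose by 1.31 and 2 did not pass. Calcrl, a receptor of the calcitonin peptide family, had 13, 7.1 and 7.4 at 5 days, against 58.6, 67.7 and 36.6 at 12 hours, and 8.8, 5.3 and 6.1 in controls 4 to 6, against 25 and 18.7 in controls 1 and 2. It fell by 2.15, with -0.94 between the controls. Tgfbr1, a receptor of transforming growth factor beta, and Nptx2, a secreted pentraxin of synapses, fell by 2.03 and 2.35, with -0.75 and -0.99 between the controls. The call of Tgfbr1 was lost in 9 of the 11 fits that each left out 1 array. None of the 11 passed the test of the double difference, with limma adjusted p-values of 0.336 to 0.864. The widest intervals were those of Grin3a, -0.13 to 4.44, and Tgfbr1, -3.46 to 0.90. Before adjustment, the intervals of Hrk (0.63 to 3.08), Chrna7 (0.91 to 3.62), Tf (0.66 to 2.03), Casp6 (-3.79 to -1.36), Kcnma1 (-4.17 to -1.10) and Calcrl (-1.97 to -0.46) excluded 0. The intervals of both Nalcn probe sets (0.62 to 3.04 and 0.06 to 3.08) also excluded it. The 11 were chosen for a large exposed and a small control difference. Their double differences were thereby bound to lie away from 0, and these intervals are no separate support. Kcnma1 and Casp6 passed without control 6, at limma adjusted p-values of 0.00687 and 0.0261, and Nalcn passed without control 1, at 0.0368.

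**Figure D4:**
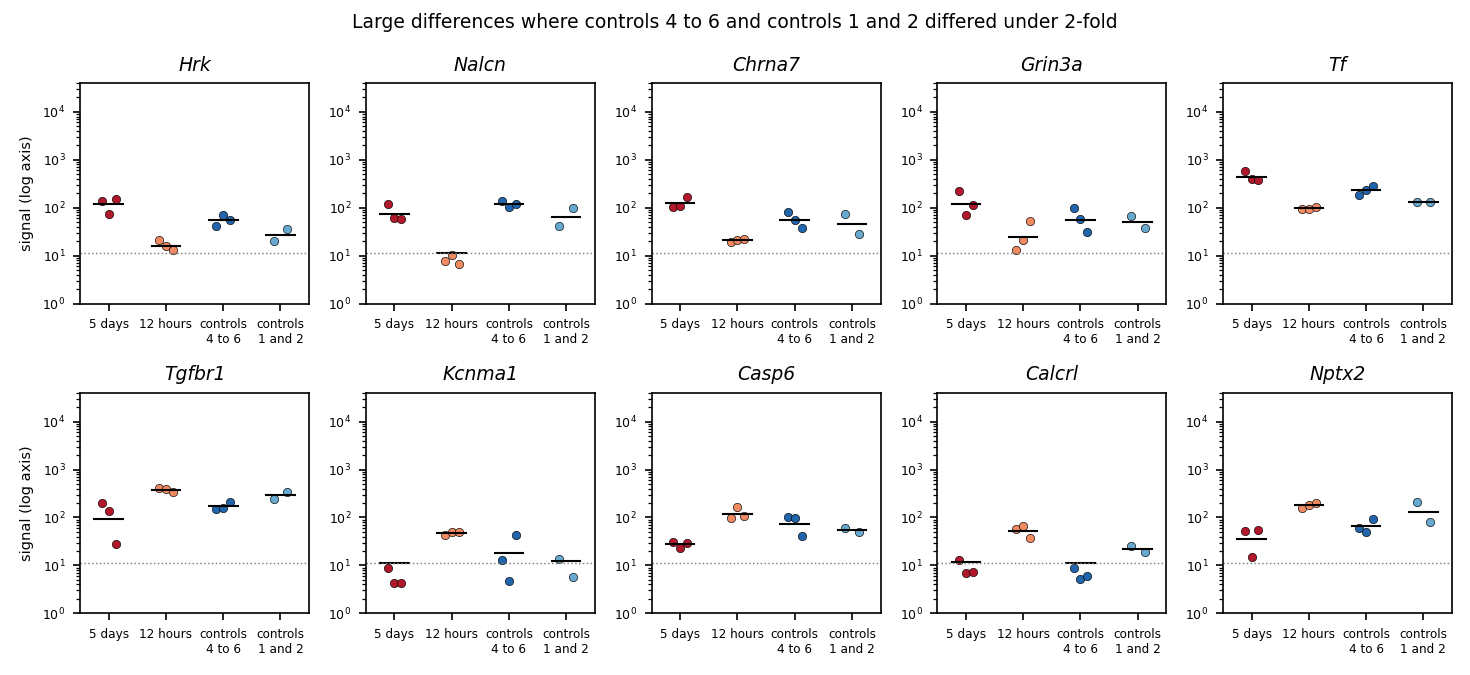
Signals on a log axis of the 10 genes with a large difference between 5 days and 12 hours and a control difference under 2-fold, 1 probe set each, with groups, points, bars and the dotted floor of 11.3 as in the plot of the 15 large differences. The 5 day and 12 hour arrays do not overlap in any panel, while controls 4 to 6 and controls 1 and 2 overlap for Chrna7, Grin3a, Kcnma1, Casp6 and Nptx2.

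By unadjusted p of the double difference, the lowest 6 probe sets were those of Gsta1, Msmo1, Casp6, Pld2, Tf and Gal, of which Gsta1, Msmo1 and Pld2 had exposed differences under 2-fold. Gsta1, a glutathione transferase on a probe set shared by its family, had 1741, 2105 and 2130.4 at 5 days, against 1459, 1437 and 1437 at 12 hours, and 1249, 1159.6 and 1387 in controls 4 to 6, against 1888 and 2330.4 in controls 1 and 2. It rose by 0.46 with exposure time, while controls 4 to 6 lay below controls 1 and 2 (-0.73), and the double difference was 1.19 (95% interval 0.77 to 1.61, limma adjusted p = 0.2). Msmo1, an enzyme of cholesterol synthesis, had 2599, 2447 and 2535 at 5 days, against 1987, 1918 and 2113 at 12 hours, and 3167, 3508 and 3493 in controls 4 to 6, against 1621 and 1671 in controls 1 and 2, with a double difference of -0.71 (limma adjusted p = 0.2). Pld2, a phospholipase D, had -0.66 (0.336).

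To place the other arrays, each array was given a position for each of the 115 large differences, 0 at the 12 hour mean and 1 at the 5 day mean, and the median was taken. Since the 12 hour and 5 day arrays set the scale, the other 12 arrays are the ones described. Controls 4, 5 and 6 had median positions of 0.98, 0.97 and 0.95, control 3 had 0.85, and controls 1 and 2 had 0.01 and 0.07. At 1 day, arrays 1 and 2 had 0.58 and 0.57 and array 3 had 0. At 3 days, arrays 1 and 2 had 0.87 and 0.91 and array 3 had 0.05. The third arrays at 1 day and 3 days thus lay with the 12 hour arrays and controls 1 and 2, apart from the other arrays carrying the same label. Controls labelled with the same treatment likewise lay at both ends of the scale.

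**Figure D5:**
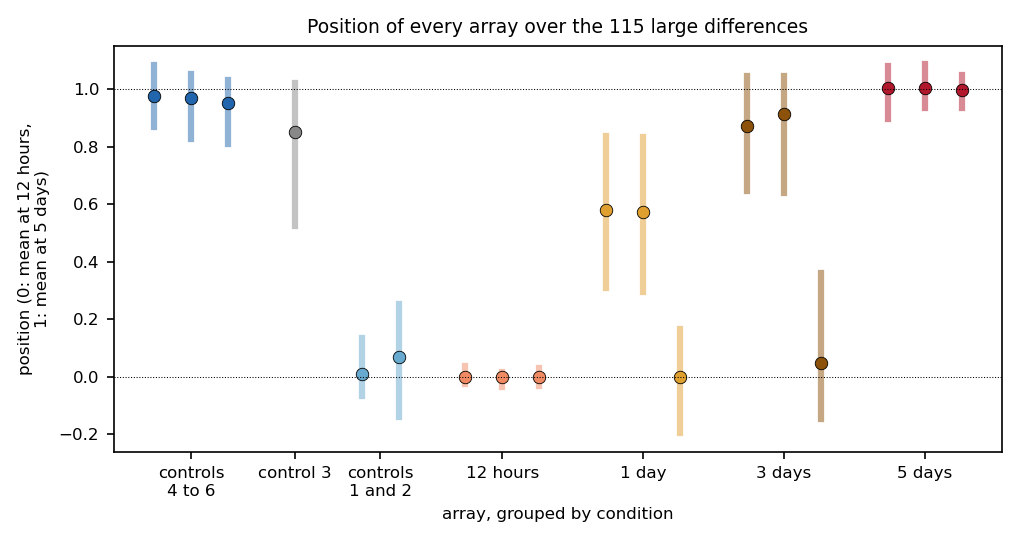
Median position (points) and quartiles (bars) over the 115 large differences for each of the 18 arrays, where 0 is the mean at 12 hours and 1 the mean at 5 days. Controls 4 to 6 lie at 0.95 to 0.98 and controls 1 and 2 at 0.01 and 0.07, while array 3 at 1 day and array 3 at 3 days lie at 0 and 0.05 and the other arrays of those times at 0.57 to 0.91.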

How the data were processed

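RNA from rat cortical astrocytes was measured on 18 single-channel arrays of 1322 probe sets. The deposited table holds linear intensity values that the authors had already scaled between arrays (trimmed means of 496 to 497 after leaving out 2% at each end), as the values show. The software they used is not given in the sources used here. It carries no detection calls. Values under the 10th percentile, a signal of 11.3, were raised to it, log2 was taken, and no further scaling was applied. The functional lists and the genes described were chosen with earlier results of these data known.

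Limma 3.58.1 in R 4.3.3 (lmFit and eBayes) was fitted over 1263 probe sets to 4 groups on 11 arrays: 5 days, 12 hours, controls 4 to 6 and controls 1 and 2, with 7 residual degrees of freedom. Contrasts were 5 days minus 12 hours, controls 4 to 6 minus controls 1 and 2, and the difference between these differences. Tests were two-sided with Benjamini-Hochberg adjustment over 1263 probe sets and a threshold of 0.05. Scripts were tested on simulated data.

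Genes were named by the array's platform annotation, which can be old; of 1137 probe sets with 1 symbol, 1132 matched the RefSeq gene table by gene ID and no symbol changed, 8 probe sets had several symbols and 118 are unnamed here. Named are the 15 largest non-overlapping differences in each direction with a mean signal above the median of the table in the higher group, 1 probe set per gene, up to 4 further called members per list, the 3 smallest p-values of the double difference in each direction, and a set of astrocyte and amyloid-related genes. Some further called members were added as values after they were seen. Alternatives covered scaling, the floor, a filter on dim probe sets, the arrays in the fit, eBayes options, a replicate block, control 3, and leaving out each array.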

Additional observations from a re-analysis of the deposited data

How the results depend on the processing

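Between 5 days and 12 hours, 351 probe sets passed. Other scalings, floors, filters, eBayes options and array sets gave 264 to 394, with 1 exception: all 18 arrays with the 6 controls as a single group gave 98 (48 higher, 50 lower, 42 large). Leaving out 1 array at a time gave 277 to 393. For controls 4 to 6 against controls 1 and 2, 279 passed, against 157 (84 higher, 73 lower) with all 18 arrays in 7 groups, 258 with control 3 added to controls 4 to 6, and 241 to 309 without 1 array. The test of the double difference called 0, against 4 with the floor at the 25th percentile (Cacna2d1, Msmo1, Gal and Gsta1) and 0 to 55 without 1 array: 55 without control 1 (21 higher, 34 lower, 16 of them among the large differences, Ccl5, Mt2A, Scn7a, Igf2 and Sst included), 3 without control 2 and 6 without control 6. The correlation of exposed and control differences was 0.763 to 0.868 in those fits, lowest without control 1. Centring each array on its median moved the median difference over all probe sets to -0.127. Over 147 named probe sets, 2788 of the values under alternatives kept their direction and side of the threshold, 268 were no longer past it, 20 came to pass it and 7, all of Igf2, S100b and Vim probe sets that did not pass, changed sign. Of the 11 fits without 1 array, calls were lost in 9 for Tgfbr1, 8 for Igfbp2 and Vcam1, 7 for Tgfb1, Maoa and Chrnb1, 6 for Glul and Mapt, 5 for Gsta1, and 4 for Bcl2, Gfra2, Grin3a, Hes1, Map1a, Pld2 and Tgfbr3. With the replicate number as a block (replicate block) 300 probe sets passed, 297 of them among the 351, and the double difference again called 0; same-numbered arrays at 5 days and 12 hours had deviations from their group means correlated at -0.003, -0.072 and 0.030, so the numbers are not shown to pair the arrays. Signals near the floor of 11.3 limit the lowest values to bounds, and no depth is given for arrays.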

Other observations

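Deviations from the group means, taken over 1263 probe sets, were correlated between the 5 day arrays and controls 4 to 6. Array 1 at 5 days and control 4 correlated at r = 0.270, array 2 at 5 days and control 5 at 0.166, and array 3 at 5 days and control 6 at 0.213. The other 6 pairings of these arrays ran from -0.187 to -0.008. Deviations within a group sum to 0 for each probe set, so positive values in some pairings bring negative ones in others. The labels number these controls 4 to 6 and do not tie them to the exposed arrays. The correlations are across probe sets, which are not independent replicates, and no test was made. The test of the double difference took all these arrays as independent, and what a pairing of them would do to its count of 0 was not tested.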
